A study of Homo sapiens with 18 samples.

Results

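The Iroquois homeobox family was followed through neural differentiation of H1, an established human pluripotent stem cell line with the wild-type genotype. Its members were taken by symbol, and all 6 genes (IRX1 to IRX6) were found among the 37550 rows of the table of transcript abundance. Messenger RNA was measured in 18 bulk libraries, 2 biological replicates in each of 9 groups. The undifferentiated cells (hPSC) were collected at day 0. All other groups passed through 1 day in a definitive ectoderm medium with A8301 at 1 µM, LDN193189 at 100 nM, C59 at 1 µM and trametinib at 250 nM, which inhibit TGF-beta receptors, BMP receptors, WNT secretion and MEK. Anterior neural ectoderm (aNE, day 2) then received A8301 at 1 µM, LDN193189 at 100 nM and C59 at 1 µM. Posterior neural ectoderm (pNE, day 2) received the same doses of A8301 and LDN193189 plus TTNPB at 50 nM, which activates retinoic acid receptors, XAV939 at 1 µM, which inhibits tankyrase, and the growth factor FGF2 at 20 ng/mL. Thiazovivin, which helps cells survive replating, was present in both day-2 media. At day 4 cells of each origin had been kept in 1 of 3 media. The suffix names the medium: T for forebrain (aNE_T, pNE_T), M for midbrain (aNE_M, pNE_M) and H for hindbrain (aNE_H, pNE_H). The forebrain medium held XAV939 at 1 µM, LDN193189 at 100 nM and FGF2 at 20 ng/mL on day 3, and the rest of its composition and that of the other day-4 media are not used here. Plating density was 37500 cells per cm2 for both day-2 groups, but 75000 for aNE and 150000 for pNE in cells kept to day 4. Origin and density therefore cannot be told apart at day 4. Nor can density be told apart from stage and medium in any change from day 2 to day 4. H1 is a single line, so nothing here bears on variation between lines.

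Iroquois genes encode transcription factors of the TALE homeodomain class, named for a loop extension of 3 amino acids in the homeodomain. In vertebrates they lie in clusters and pattern the neural plate, where they are known from regions behind the most rostral forebrain. IRX3 and the rostral gene SIX3 repress each other in the chick and meet at a border within the forebrain, and IRX3 takes part with PAX6, NKX2-2 and OLIG2 in setting dorsoventral domains of the neural tube. IRX2 has been linked to cerebellum formation downstream of FGF8, IRX4 is known as a gene of the heart ventricle, and IRX5 acts in retinal bipolar cells and the heart.

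The genes form a cluster on chromosome 5 and another on chromosome 16. In the RefSeq annotation of GRCh38.p14, IRX4 (chr5:1877413-1887179, minus strand), IRX2 (chr5:2735635-2751677, minus strand) and IRX1 (chr5:3595832-3601403, plus strand) are separated by 848.5 kb and 844.2 kb. IRX3 (chr16:54283304-54286787, minus strand), IRX5 (chr16:54930865-54934485, plus strand) and IRX6 (chr16:55324203-55330756, plus strand) are separated by 644.1 kb and 389.7 kb. The coding sequence of the homeobox shows how alike the members are, which bears on how well reads can be assigned to each. The 39 bases below encode the end of the homeodomain around its DNA-recognition helix and come from the GENCODE release 29 transcripts, 5′ to 3′. Capitals mark the 36 bases that are identical in all 6 genes.

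IRX1: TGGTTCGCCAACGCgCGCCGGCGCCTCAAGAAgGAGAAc

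IRX2: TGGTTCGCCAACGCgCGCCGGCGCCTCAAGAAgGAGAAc

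IRX4: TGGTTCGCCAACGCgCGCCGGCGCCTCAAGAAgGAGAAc

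IRX3: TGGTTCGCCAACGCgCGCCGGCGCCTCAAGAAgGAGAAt

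IRX5: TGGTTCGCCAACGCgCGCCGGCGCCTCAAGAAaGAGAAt

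IRX6: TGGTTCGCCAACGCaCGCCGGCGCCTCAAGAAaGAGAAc

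Outside this core the transcripts differ. Of all 31-base words in the transcripts of a member, 1.12% (IRX6) to 3.71% (IRX3) occur in another member, and IRX3 and IRX5 share 104 of them. IRX1 is the exception for another reason, because 329 of its 1828 words also occur in AC016595.1, a gene on the opposite strand of the same locus (chr5:3596211-3600188). Whether the authors' quantification used the strand is not given in the sources used here, so reads from the shared stretch cannot be assigned to IRX1 or to this antisense gene. The other genes included, 21% of the IRX1 words occur elsewhere, and the rest were found in no other gene of these transcripts.

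Levels are transcript abundances scaled for transcript length (TPM), and can be set side by side between genes. IRX3, the most abundant gene of the chromosome 16 cluster, was near the floor in stem cells, with 0.964 and 1.27 TPM in the hPSC libraries. Its day-2 values were 33.3 and 32.1 TPM in aNE and 7.25 and 10.02 TPM in pNE, so the anterior libraries were the high ones. At day 4 the aNE-derived libraries had 7.56 and 6.67 TPM in forebrain medium, 8.97 and 6.64 TPM in midbrain medium and 9.85 and 6.02 TPM in hindbrain medium. The pNE-derived libraries had 29.3 and 28.7 TPM, 9.27 and 9.73 TPM, and 39.4 and 30.7 TPM in the same media. The high groups were therefore aNE at day 2 and pNE_T and pNE_H at day 4, and every library of these 3 groups lay above every library of the other 6. The libraries of pNE_H and aNE overlapped, as did those of each neighbouring pair from pNE_M (mean 9.50 TPM) down to aNE_T (mean 7.11 TPM).

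IRX5, its neighbour, had the same high groups at lower levels. It was at 0.0488 and 0.170 TPM in hPSC, 7.55 and 7.25 TPM in aNE and 1.42 and 1.26 TPM in pNE. In aNE-derived cells it was at 1.40 and 2.01 TPM in forebrain medium, 1.75 and 1.32 TPM in midbrain medium and 1.93 and 1.94 TPM in hindbrain medium. In pNE-derived cells it was at 3.62 and 3.90 TPM, 0.921 and 1.48 TPM, and 5.78 and 3.81 TPM in these media. The aNE libraries stood above all others, the libraries of pNE_H and pNE_T overlapped in second place, and neighbouring groups from aNE_H down to pNE_M overlapped. IRX6, the third gene of the cluster, was listed at 0 in 6 libraries and did not exceed 0.142 TPM in any, so it was left out by the filter on low values (at least 1 TPM in at least 2 libraries) and was not tested. The other 5 members passed that filter.

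IRX2 was the most abundant gene of the chromosome 5 cluster in every group but aNE_M, where its libraries overlapped those of IRX1. It was at 6.09 and 6.22 TPM in hPSC, 45.1 and 40.01 TPM in aNE and 42.3 and 49.5 TPM in pNE, so the libraries of the day-2 origins overlapped. By day 4 it stood at 20.7 and 20.1 TPM in aNE_T against 19.6 and 21.1 TPM in pNE_T, and at 42.8 and 36.8 TPM in aNE_H against 34.6 and 31.1 TPM in pNE_H. Midbrain medium gave the lowest day-4 values in both origins, 15.6 and 12.4 TPM in aNE_M and 9.52 and 9.93 TPM in pNE_M. In its order over the groups, the origins of the same stage and medium were neighbours, with the libraries of pNE, aNE and aNE_H overlapping at the top and hPSC at the bottom. The origins were apart in 2 media, as both aNE-derived libraries lay above both pNE-derived ones in midbrain and in hindbrain medium.

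IRX1, at the far end of that cluster, was at 0.586 and 0.240 TPM in hPSC, 11.7 and 10.8 TPM in aNE and 3.32 and 4.59 TPM in pNE. The aNE-derived groups were far apart, with 1.38 and 1.90 TPM in forebrain medium, 15.9 and 12.8 TPM in midbrain medium and 10.4 and 8.40 TPM in hindbrain medium. The pNE-derived groups lay closer together, at 4.83 and 2.80 TPM in forebrain medium, 1.88 and 1.66 TPM in midbrain medium and 5.24 and 4.40 TPM in hindbrain medium. The libraries of aNE_M stood above all others, followed without overlap by aNE and aNE_H, whereas those of pNE_H, pNE and pNE_T overlapped. IRX4 was near the floor, with at least 1 TPM in 2 libraries, 1 of hPSC (1.61 TPM) and 1 of pNE (1.18 TPM). Its other hPSC and pNE libraries had 0.872 and 0.773 TPM, the remaining 7 groups had means of 0.0418 (aNE) to 0.225 TPM (pNE_H), and it was listed at 0 in 4 libraries.

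**Figure D1:**
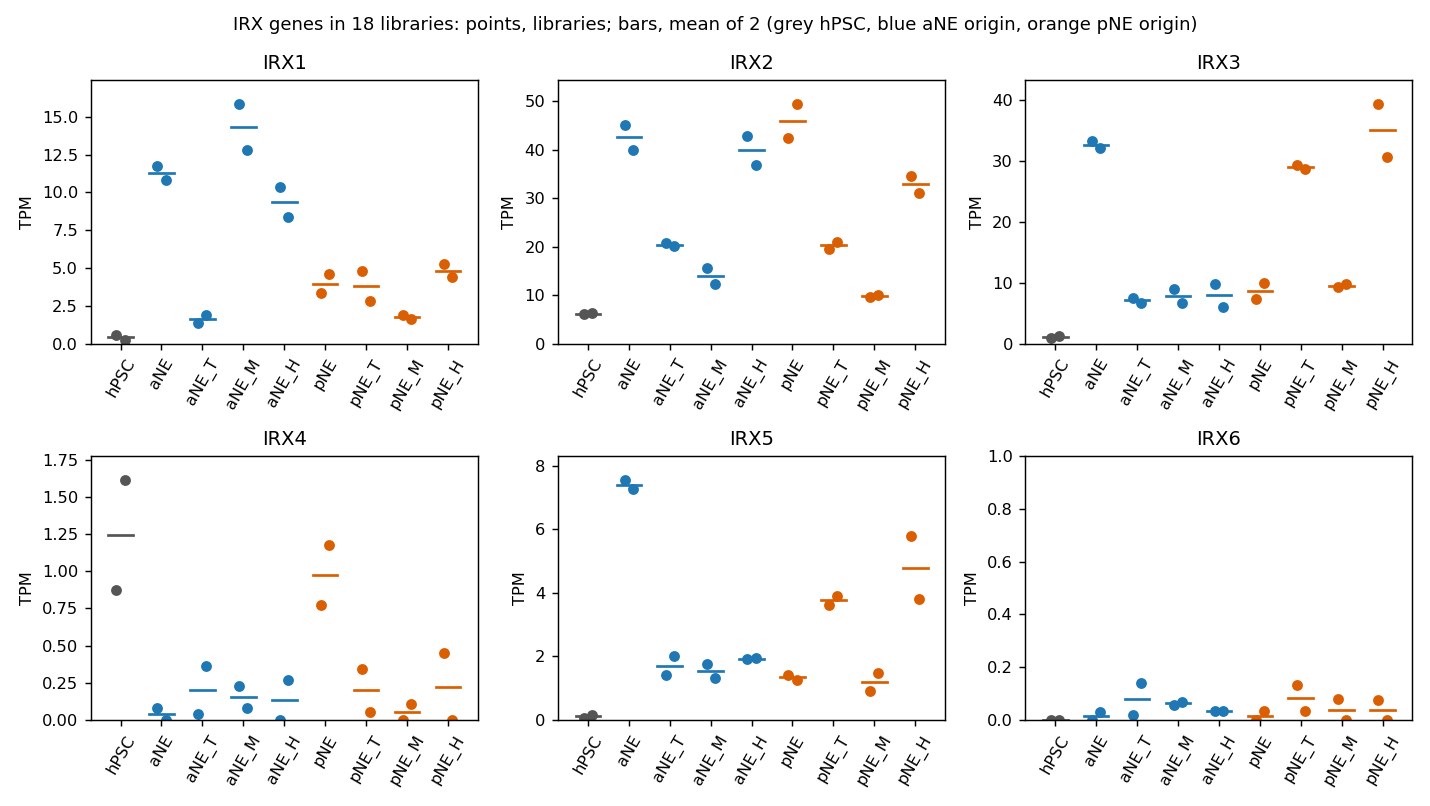
TPM of each Iroquois gene in the 18 libraries, with 1 panel per gene, the 9 groups on the horizontal axis and TPM on the vertical axis, whose range differs between panels. Points are libraries and bars are means of 2, with grey for hPSC, blue for aNE origin and orange for pNE origin. IRX3 and IRX5 share their high groups (aNE, pNE_T and pNE_H), IRX1 is highest in aNE_M, and IRX6 stays at or below 0.142 TPM.

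IRX1 and IRX2 stood apart in aNE_M, where IRX1 had its highest mean of any group and IRX2 its lowest among the aNE-derived groups, so the sequences ahead of their starts are shown. These are the 250 bases upstream of the RefSeq start site in GRCh38.p14, read 5′ to 3′ on the strand of the gene, at chr5:3595582-3595831 on the plus strand for IRX1 and chr5:2751678-2751927 on the minus strand for IRX2. Capitals mark a match to CTTTGAT, the core of sites bound by TCF and LEF factors, which may lie on either strand.

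IRX1: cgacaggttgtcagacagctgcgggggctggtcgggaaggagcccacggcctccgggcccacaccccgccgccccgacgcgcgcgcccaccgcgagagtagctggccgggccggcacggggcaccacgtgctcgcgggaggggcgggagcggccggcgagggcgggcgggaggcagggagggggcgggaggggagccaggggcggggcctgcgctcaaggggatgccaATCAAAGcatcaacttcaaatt

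IRX2: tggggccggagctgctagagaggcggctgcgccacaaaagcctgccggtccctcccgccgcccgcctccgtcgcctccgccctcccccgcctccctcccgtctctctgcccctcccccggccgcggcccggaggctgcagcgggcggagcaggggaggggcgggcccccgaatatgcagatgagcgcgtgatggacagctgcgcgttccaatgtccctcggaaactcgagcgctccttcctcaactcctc

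The IRX1 window held 1 match, 22 bases before the start, and it overlaps a CCAAT match 25 bases before the start. The IRX2 window held none and had a CCAAT match 43 bases before the start. Of 35116 promoter windows of this length, 2.26% held CTTTGAT and 32% held CCAAT on either strand, and 4.35% held the homeobox core TAATTA, which neither window contained. A match describes these letters and is not evidence of a bound site. IRX3, IRX5 and IRX6 were not among the promoter sequences used here.

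The summed level of the 6 genes had a mean of 9.04 TPM in hPSC, 94.0 ± 5.39 TPM (SD, n = 2) in aNE and 60.8 TPM in pNE, given as a description with no test. At day 4 the sums of the aNE-derived groups were 31.1 TPM (forebrain), 37.9 TPM (midbrain) and 59.3 TPM (hindbrain). Those of the pNE-derived groups were 57.2, 22.3 and 77.8 TPM in the same order. The chromosome 16 genes supplied 42.7% in aNE and 16.4% in pNE at day 2, but 28.6%, 24.7% and 16.6% in aNE_T, aNE_M and aNE_H and 57.5%, 48.2% and 51.1% in pNE_T, pNE_M and pNE_H at day 4. IRX1 supplied 37.9% of the sum in aNE_M, its largest share in any group.

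**Figure D2:**
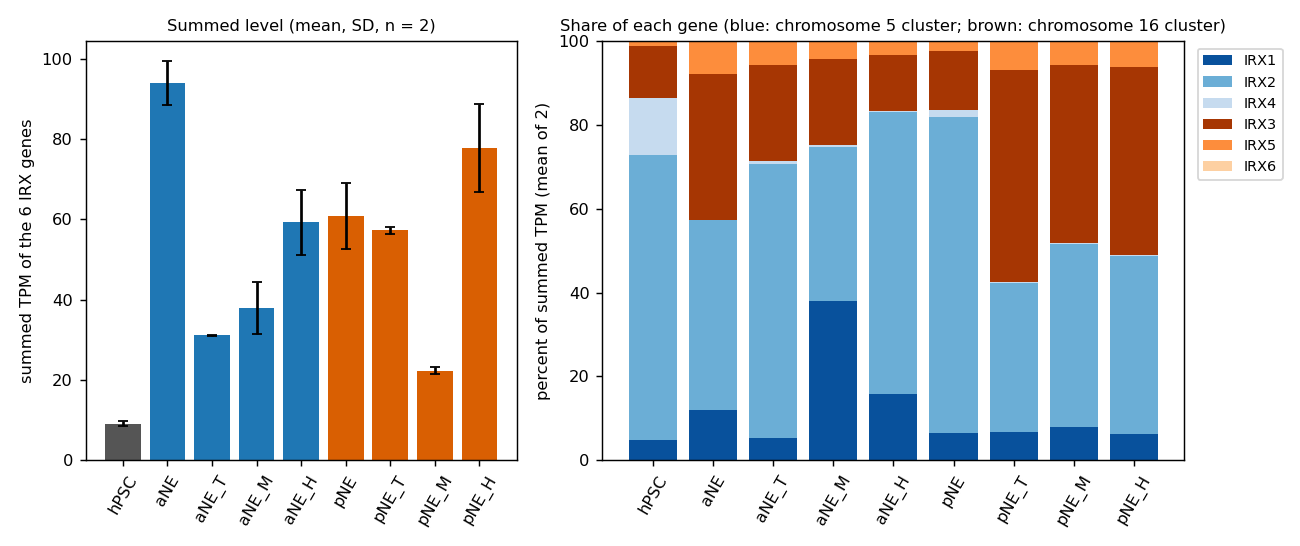
Left, the summed TPM of the 6 Iroquois genes in each group (bars, mean; error bars, SD of 2 libraries). Right, the percent of that sum from each gene (mean of 2 libraries), with chromosome 5 genes in blue and chromosome 16 genes in brown: the brown share is 16.4% in pNE and 57.5% in pNE_T.

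The first comparison set each day-2 group against hPSC, before and after neural induction. Differences were tested with limma on log2(TPM + 1) over 17033 genes, and a call required both an adjusted p under 0.05 and a log2 difference of 1 or more in either direction. These fold changes understate those of genes with low TPM. All 5 tested members were called in aNE, 4 higher and 1 lower, where 13.5% of all tested genes were called. The 1 lower was IRX4, which passed the filter only through 1 hPSC and 1 pNE library. Its fall from hPSC is therefore not independent of that filter. In pNE 4 of 5 were called, all higher, against 12.9% of all genes. IRX3 rose by 3.995 on the log2 scale in aNE (SE 0.21, adjusted p = 1.15e-08), with IRX1 at 3.13, IRX5 at 2.92 and IRX2 at 2.60. The order of these rises depended on the pseudocount: with 0.1 in place of 1, IRX5 (5.23) came before IRX3 (4.76), and the ratio of mean TPM was 67.8 for IRX5 and 29.2 for IRX3. IRX2 rose by 2.71 (SE 0.12, adjusted p = 2.68e-09) in pNE, with IRX3 at 2.17, IRX1 at 1.81 and IRX5 at 1.08. The IRX5 call in pNE was lost under quantile normalization (0.88) and without the first hPSC replicate (1.00). IRX4 in aNE fell by 1.09 (SE 0.26, adjusted p = 0.00477), from a mean of 1.24 TPM in hPSC to 0.0418 TPM, and its difference in pNE was -0.17 (adjusted p = 0.652). Both comparisons share the hPSC libraries.

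Origin was compared next, starting at day 2. IRX1, IRX3 and IRX5 were lower in pNE than in aNE, 3 of the 5 tested members, where 3.85% of all genes were called. IRX3 was 3.79 times as high in aNE, with a log2 difference of -1.82 (SE 0.21, adjusted p = 5.89e-05) for pNE minus aNE. IRX5 was 5.53 times as high in aNE (-1.85, SE 0.20, adjusted p = 3.65e-05), and IRX1 was 2.85 times as high (-1.32, SE 0.22, adjusted p = 0.00141). Fitted on the compared libraries alone, the IRX1 difference had an adjusted p of 0.0699. IRX2 differed by 0.10, with a 95% interval from -0.16 to 0.37 (adjusted p = 0.66). IRX4 differed by 0.92 (adjusted p = 0.0342), short of the fold required, and as it passed the filter partly through a pNE library, this difference is not independent of it.

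From day 2 to day 4 the chromosome 16 genes went opposite ways in cells of aNE and pNE origin. In aNE-derived cells IRX3 fell in every medium, with log2 changes of -2.06, -1.95 and -1.95 in forebrain, midbrain and hindbrain medium (SE 0.21, adjusted p = 8.2e-06 to 1.28e-05), and the changes of IRX5 were -1.64, -1.73 and -1.52. In pNE-derived cells IRX3 rose by 1.66 in forebrain medium (SE 0.21, adjusted p = 4.82e-05) and by 1.91 in hindbrain medium (adjusted p = 1.1e-05). IRX5 rose by 1.03 and 1.29 in these media, and the forebrain call was lost without the second pNE replicate (0.98) or the second pNE_T replicate (0.98). In midbrain medium neither moved past the threshold in pNE-derived cells, with 0.14 for IRX3 (95% interval -0.31 to 0.59) and -0.10 for IRX5 (-0.53 to 0.33).

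The difference between these responses was itself tested as an interaction, the change of pNE-derived cells minus that of aNE-derived cells in each medium. IRX3 was called in all 3 media, at 3.71 in forebrain, 2.09 in midbrain and 3.86 in hindbrain medium (SE 0.29, adjusted p = 1.98e-06, 3.27e-04 and 1.45e-06). IRX5 was called in all 3 as well, at 2.67, 1.63 and 2.81 (SE 0.28, adjusted p = 2.78e-05, 0.00159 and 1.69e-05). All of these kept their call in every alternative run. The share of all tested genes called was 7.14% for the forebrain interaction, where 3 of 5 members were called, 7.02% for the midbrain interaction with 3 of 5, and 7.83% for the hindbrain interaction with 2 of 5. The interactions share the day-2 libraries and are not independent of each other. In midbrain medium the aNE-derived change was called for both genes and the pNE-derived change for neither.

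**Figure D3:**
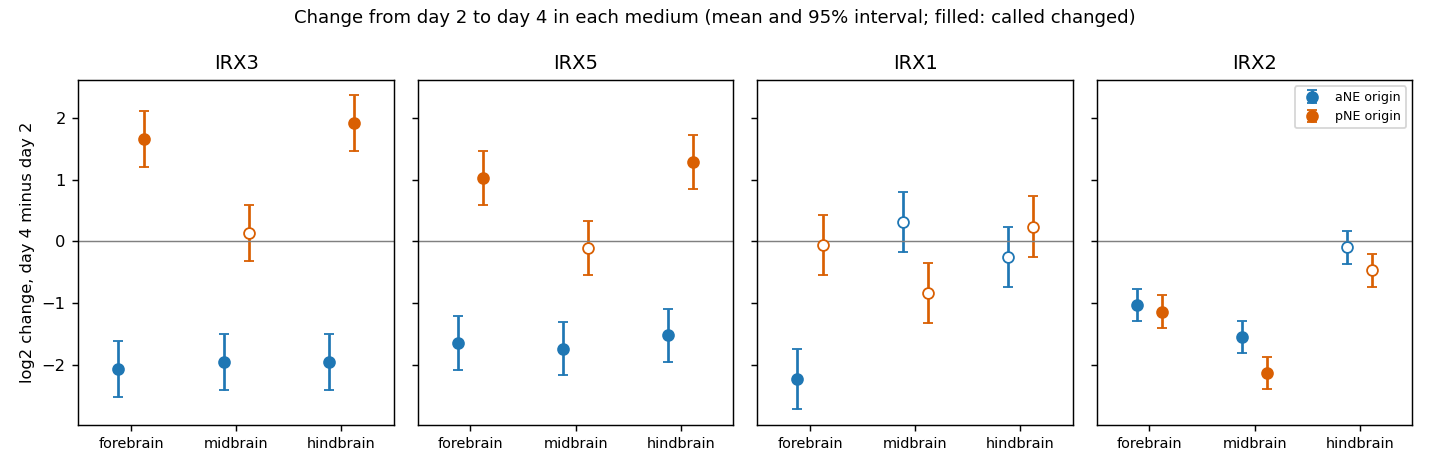
Log2 change from day 2 to day 4 (vertical axis, on the log2(TPM + 1) scale) in each medium (horizontal axis) for IRX3, IRX5, IRX1 and IRX2. Points are limma estimates with 95% intervals, blue for aNE origin and orange for pNE origin, filled where called. IRX3 lies near -2 in all 3 media for aNE origin and at 1.66, 0.14 and 1.91 for pNE origin, whereas both origins lie at or below -0.10 for IRX2.

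IRX1 and IRX2 answered the media in other patterns. IRX1 fell in aNE-derived cells in forebrain medium, by 2.22 (SE 0.22, adjusted p = 7.83e-06), with 0.32 in midbrain medium (95% interval -0.17 to 0.80) and -0.25 in hindbrain medium (-0.73 to 0.24). In pNE-derived cells IRX1 was not called in any medium, with the largest difference in midbrain medium (-0.83, adjusted p = 0.0112). Its interaction was 2.16 in forebrain medium (SE 0.32, adjusted p = 4.3e-04) and -1.14 in midbrain medium (SE 0.32, adjusted p = 0.03), and 0.49 (-0.20 to 1.18) in hindbrain medium. The midbrain interaction lost its call in 9 of the alternatives, 6 of them leaving out a single library: each aNE replicate, each pNE_M replicate, the first aNE_M or the second pNE replicate. Across leave-one-out fits its adjusted p ran from 0.0163 to 0.095.

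IRX2 fell in forebrain and midbrain medium in both origins. The falls in forebrain medium were 1.03 from aNE (SE 0.12, adjusted p = 3.24e-05) and 1.13 from pNE (adjusted p = 1.2e-05), and the first was 0.94 without the first aNE replicate, just under the fold required. In midbrain medium IRX2 fell by 1.54 from aNE and by 2.13 from pNE (SE 0.12, adjusted p = 5.15e-07 and 2.51e-08). In hindbrain medium its differences were -0.10 from aNE (95% interval -0.36 to 0.17) and -0.47 from pNE (-0.73 to -0.20), neither called. The IRX2 interactions were -0.11 in forebrain medium (-0.48 to 0.26), -0.58 in midbrain medium (-0.95 to -0.21, adjusted p = 0.0405) and -0.37 in hindbrain medium (-0.75 to 0.00), none past the fold required.

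Counted by group, 4 of the 5 tested members were lower in aNE_T than in aNE, where 9.03% of all genes were called. The counts were 3 of 5 in aNE_M (12% of all genes) and 2 of 5 in aNE_H (10.1%), again all lower. From pNE, 3 of 5 were called in pNE_T (2 higher and 1 lower, against 10.2% of all genes), 1 of 5 in pNE_M (lower, 12.7%) and 2 of 5 in pNE_H (both higher, 12.3%). Over these 6 comparisons 15 of 30 member tests were called, 11 lower and 4 higher, and comparisons of 1 origin share their day-2 libraries. IRX4 was called in none of the 6. Its differences from pNE were -0.72, -0.90 and -0.71 in pNE_T, pNE_M and pNE_H (limma adjusted p = 0.049, 0.0161 and 0.0492). From its means in pNE (0.976 TPM) and aNE (0.0418 TPM), even a fall to 0 could not reach the fold required on the log2(TPM + 1) scale. With a pseudocount of 0.1 the difference of pNE_M from pNE was called (-2.88, adjusted p = 0.0373). As IRX4 passed the filter only through 1 hPSC and 1 pNE library, its differences from pNE are not independent of that filter.

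Compared at equal medium on day 4, calls between the origins were made for IRX3 and IRX1. IRX3 was 4.08 times as high in pNE_T as in aNE_T (log2 difference 1.89, SE 0.21, adjusted p = 1.85e-05) and 4.42 times as high in pNE_H as in aNE_H (2.04, SE 0.21, adjusted p = 1.08e-05). With a fit of the pNE_H and aNE_H libraries alone, the adjusted p of the latter was 0.0618. In midbrain medium IRX3 differed by 0.27 (95% interval -0.19 to 0.72). IRX1 was 8.10 times as high in aNE_M as in pNE_M (-2.46 for pNE_M minus aNE_M, SE 0.22, adjusted p = 4.66e-06), and in hindbrain medium it differed by -0.83 (-1.32 to -0.35, adjusted p = 0.0171), under the fold required. In forebrain medium IRX1 went the other way, 2.33 times as high in pNE_T as in aNE_T with no overlap of libraries (0.84, 0.36 to 1.33, adjusted p = 0.0162), also under that fold. It passed with a pseudocount of 0.1 (1.14) and without the second pNE_T replicate (1.15).

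IRX5 was higher in every pNE_T and pNE_H library than in any aNE-derived library of the same medium, at 0.82 (adjusted p = 0.00949) and 0.96 (adjusted p = 0.00358), also under the fold required. With a pseudocount of 0.1 both passed it, at 1.11 and 1.24. IRX2 differed by -0.0041 in forebrain medium (-0.27 to 0.26), -0.48 in midbrain medium (-0.74 to -0.21) and -0.27 in hindbrain medium (-0.53 to -0.0038). Thus 1 of 5 tested members was called in each medium, where 7.77% (forebrain), 5.74% (midbrain) and 6.83% (hindbrain) of all genes were called. Over day 2 and day 4 together, 6 of 20 member tests of origin were called, 4 lower and 2 higher in pNE or its derivatives. The reversal of IRX3 between day 2 and day 4 is the interaction given above.

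**Figure D4:**
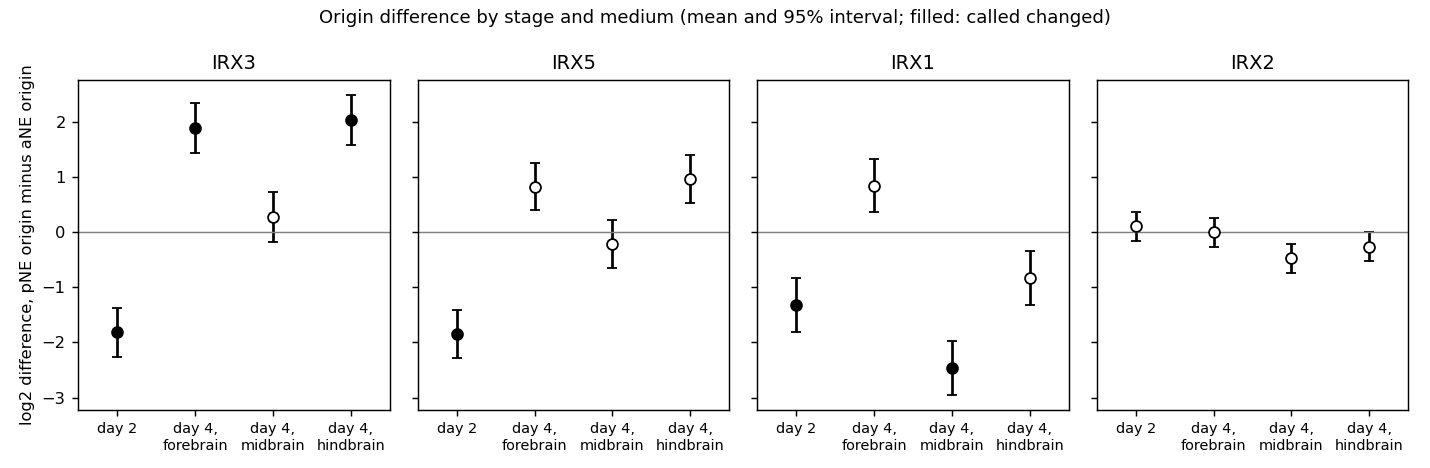
Log2 difference between origins (vertical axis, pNE origin minus aNE origin on the log2(TPM + 1) scale) at day 2 and in each day-4 medium (horizontal axis) for IRX3, IRX5, IRX1 and IRX2. Points are limma estimates with 95% intervals, filled where called: IRX3 is at -1.82 at day 2 and at 1.89 and 2.04 in forebrain and hindbrain medium, and IRX1 is at -2.46 in midbrain medium.

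Between media of the same origin, the aNE-derived cells differed in the chromosome 5 genes and the pNE-derived cells in both clusters. IRX1 was 8.74 times as high in aNE_M as in aNE_T (2.54, SE 0.22, adjusted p = 1.64e-06) and 5.72 times as high in aNE_H as in aNE_T (1.98, adjusted p = 3.07e-05). It was the only member called in either comparison, 1 of 5, where 10.1% and 6.6% of all genes were called. IRX2 lay just under the fold required in aNE_H against aNE_T (0.93, SE 0.12, adjusted p = 9.74e-05). Its difference was 1.02 under quantile normalization and 1.04 without the second aNE_H replicate. IRX2 was 2.84 times as high in aNE_H as in aNE_M (1.45, SE 0.12, adjusted p = 2.51e-06), 1 of 5 against 4.92% of all genes, with an adjusted p of 0.0609 when these libraries were fitted alone. IRX3 and IRX5 were not called between any of the aNE-derived groups.

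Among pNE-derived cells, midbrain medium was the low condition. IRX3 was lower in pNE_M than in pNE_T by 1.52 (SE 0.21, adjusted p = 1.07e-04) on the log2 scale and IRX5 by 1.13 (SE 0.20, adjusted p = 8.73e-04), 2 of 5 members against 8.6% of all genes. The IRX5 call was lost without the first pNE_M replicate (-0.94). IRX2 lay just under the fold required for pNE_M minus pNE_T (-0.99, SE 0.12, adjusted p = 4.07e-05), and IRX1 was at -0.77 (adjusted p = 0.0212). With a pseudocount of 0.1 they were at -1.055 and -1.02. Between pNE_H and pNE_M 4 of 5 members were called, all higher in pNE_H, where 5.99% of all genes were called, with IRX3 at 1.77 (SE 0.21, adjusted p = 4.82e-05), IRX2 at 1.66 (adjusted p = 6.35e-07), IRX5 at 1.39 and IRX1 at 1.07. With only these libraries fitted, the adjusted p was 0.0832 for IRX5 and 0.0503 for IRX1, and IRX1 fell under the fold required without the first pNE_H replicate (0.96).

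No member was called between pNE_H and pNE_T by limma, where 5.03% of all genes were, and IRX2 had the largest difference there (0.67, 95% interval 0.40 to 0.93, adjusted p = 0.00184). At an unadjusted p under 0.05 it was the 1 member of 5 that differed. IRX3 differed by 0.25 (-0.20 to 0.70) and IRX5 by 0.26 (-0.17 to 0.70).

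The labels were checked against defining markers. Between 13686 and 14679 genes reached 1 TPM per library. Of 4 pluripotency markers, the sum was 3705 to 3709 TPM in hPSC, 259 to 283 TPM at day 2 and 4.63 to 50.5 TPM at day 4. Of 6 neural ectoderm markers, 5 or 6 had a group mean of at least 1 TPM in every group but hPSC, which had 4, and the sum ran from 426 TPM in pNE_M to 1551 TPM in aNE_T. It was under 560 TPM in every midbrain and hindbrain library. PAX6, a defining marker of human neural ectoderm, had a mean of 0.370 TPM in pNE_M, 1.94 TPM in pNE and 29.1 TPM in aNE. In bulk RNA, fewer cells of a type and less RNA per cell cannot be told apart.

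Markers of other cell types moved with some of the Iroquois results. The sum of 7 mesoderm markers was 99.1 to 120 TPM in aNE_M, where MIXL1 was at 86.5 TPM and IRX1 was highest, 40.2 to 44.1 TPM in pNE_M, 35.1 to 35.2 TPM in pNE_H, 22.6 to 26.8 TPM in pNE_T, and 1.63 to 4.76 TPM in the other 5 groups. Most of the aNE_M sum was MIXL1, whereas MEOX1 had its highest mean in pNE_M (26.0 TPM) and FOXC1 in pNE_H (18.1 TPM). TBXT, the defining mesoderm gene, had means of 3.36 TPM (aNE_M) and 1.57 TPM (pNE_M) and was listed at 0 in 7 of the 18 libraries. IRX3 was at 33.3 and 32.1 TPM in aNE, where the mesoderm sum was 2.30 to 2.55 TPM, and at 8.97 and 6.64 TPM in aNE_M, where that sum was highest.

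In pNE_T and pNE_H, the high groups for IRX3 and IRX5 at day 4, some endodermal and cardiac or endothelial markers were also higher than in the aNE-derived group of the same medium. These were 2 of 4 tested endoderm markers and 2 of 3 tested cardiac and endothelial markers in forebrain medium, and 3 of 4 and 2 of 3 in hindbrain medium, where 1 cardiac marker was lower. In midbrain medium, where IRX3 was not called between origins, 2 of 4 endoderm markers were higher in pNE_M too, and 0 of 3 cardiac and endothelial markers were called. The 5 endoderm markers summed to 15.5 to 19.4 TPM in pNE_T and pNE_H and 2.97 to 3.73 TPM in aNE. Their sum was highest in pNE_M, at 30.7 to 33.5 TPM. SOX17 was listed at 0 in 13 of the 18 libraries. The 4 cardiac and endothelial markers summed to 46.3 to 49.3 TPM in pNE_T, 28.3 to 34.2 TPM in pNE_H and 33.2 to 33.4 TPM in aNE. Neural crest markers summed to 17.4 to 18.04 TPM in aNE_M and 37.2 to 44.7 TPM in pNE_M, and surface and placode markers, mostly KRT18, to 289 to 307 TPM in aNE and 686 to 756 TPM in pNE.

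Neuron markers, mostly TUBB3, had their highest sum in aNE_M, as IRX1 did. The 4 genes summed to 385 to 400 TPM in aNE and 172 to 206 TPM in pNE, and at day 4 to 512 to 556 TPM in aNE_M, where IRX1 was highest. In pNE_M the sum was 241 to 268 TPM. It was 165 to 185 TPM in aNE_T, 164 to 181 TPM in aNE_H, 45.5 to 48.7 TPM in pNE_T and 60.6 to 71.3 TPM in pNE_H. STMN2, a gene of growing axons, had its highest mean in aNE_M, at 21.4 TPM, and did not exceed a mean of 1.82 TPM in any other group. NEUROG2 went the other way, with a mean of 19.5 TPM in pNE_M, where IRX1 was low, and 0.143 TPM in aNE_M. ELAVL4 was highest in pNE_H, with a mean of 0.904 TPM. Of 3 tested neuron markers, 2 were higher in aNE_M than in aNE_T, and 2 were lower and 1 higher in pNE_M than in aNE_M. IRX1 was called in both comparisons and in others. Of the 3 markers, 2 were lower in aNE_T and 1 in pNE than in aNE, where IRX1 was lower too. None was called in aNE_H against aNE_T or in either day-2 group against hPSC, where IRX1 was higher. In pNE_H against pNE_M 2 were lower, whereas IRX1 was higher. The part of these cell types in the Iroquois differences was not tested.

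Genes that share the neural plate with the Iroquois family were read from lists, beside the origin comparisons above. Of 8 rostral genes, 5 were lower in pNE than in aNE at day 2 (median log2 difference -1.36, against -0.010 over all tested genes). In pNE-derived cells 8, 3 and 7 were lower in forebrain, midbrain and hindbrain medium. SIX3, the known partner of IRX3 at its rostral border, had a mean of 190 TPM in aNE, where IRX3 was high, and 60.7 TPM in pNE. Forebrain medium gave 397 TPM of SIX3 from aNE, where IRX3 was low, and 38.9 TPM from pNE, where IRX3 was high. Hindbrain medium gave 66.0 TPM of SIX3 from aNE (IRX3 mean 7.94 TPM) and 10.6 TPM from pNE (IRX3 35.0 TPM). In midbrain medium both genes were low, with SIX3 at 3.47 TPM from aNE and 0.156 TPM from pNE beside IRX3 at 7.80 and 9.50 TPM. Of 11 hindbrain genes, 6 were higher in pNE at day 2 (median 1.70) and 9, 8 and 9 in pNE-derived cells in the 3 media, among them HOXB1, with means of 136, 343 and 330 TPM in pNE_T, pNE_M and pNE_H. Of 8 tested midbrain and isthmus genes, 7 were lower in pNE_M than in aNE_M, the pair of groups in which IRX1 differed, and EN1 was at 135 TPM in aNE_M and listed at 0 in pNE_M. Some of these genes passed the filter on low values only through groups where they were high, so their calls are not independent of it. EN1 and EN2 had a mean of at least 1 TPM only in aNE_M. The HOX genes had means of at most 0.263 TPM outside pNE and its derivatives.

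Other genes of the TALE class were set beside the family by origin. MEIS2 was higher in pNE than in aNE at day 2, 1 of 11 tested TALE genes outside the family (median log2 difference 0.21). At day 4 the numbers higher in pNE-derived cells were 4, 2 and 4 of 11 in forebrain, midbrain and hindbrain medium, and none passed the fold required for a lower call. In midbrain medium 9 of 11 had an unadjusted p under 0.05 with a median log2 difference of -0.19, and several differences lay just inside that fold: the means of MEIS3 were 78.8 TPM (aNE_M) and 39.2 TPM (pNE_M), a difference of -0.995, and those of TGIF1 were 191 and 110 TPM (-0.80). MEIS1 had means of 76.4, 34.0 and 139 TPM in pNE_T, pNE_M and pNE_H against 1.56 to 2.06 TPM in the aNE-derived groups. Its fall from pNE_T to pNE_M was 1.17 on the log2 scale, beside 1.52 for IRX3.

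Of 6 genes of the retinoic acid response, 3 were higher in pNE at day 2 (median log2 difference 1.22, against -0.010 over all tested genes) and 5, 4 and 4 in pNE-derived cells in the 3 media. RARB, a receptor gene that retinoic acid induces, had means of 81.5 TPM in pNE_T and 61.2 TPM in pNE_H, the groups high in IRX3, and 4.82 TPM in pNE_M. Its day-2 mean was 20.7 TPM in pNE, the origin with less IRX3, and 1.18 TPM in aNE. Of 7 FGF-ERK response genes, 6 were higher in pNE than in aNE at day 2 (median 2.30). At day 4 none was higher in pNE-derived cells in any medium, and 1, 0 and 1 were lower.

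WNT response genes separated the midbrain medium from the others in both origins. Of 9 such genes, 8 were higher in aNE_M than in aNE_T and 9 in pNE_M than in pNE_T, and their sum was 1232 to 1465 TPM in the midbrain libraries and at most 192 TPM in any other library. IRX2 was low in both midbrain groups, and IRX1 was highest in aNE_M and 8.10 times lower in pNE_M. Of 5 tested dorsoventral genes, PAX6 and DBX1 were lower in pNE than in aNE at day 2, and 1, 2 and 2 were lower and 0, 0 and 1 higher in pNE-derived cells in the 3 media. DBX1 had a mean of at least 1 TPM only in aNE (1.75 TPM), so its call is not independent of the filter on low values. In forebrain medium PAX6 had means of 34.6 TPM from pNE and 18.4 TPM from aNE.

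Genes beside the clusters were not called with origin by limma. At day 2 and in each medium, 0 of 4 tested neighbours of the chromosome 5 cluster were called. For the chromosome 16 cluster it was 0 of 7, and at most 1 of each had an unadjusted p under 0.05. Of all genes, 3.85% were called at day 2 and 7.77%, 5.74% and 6.83% in forebrain, midbrain and hindbrain medium. With so few neighbours tested, counts of 0 cannot be told apart from these shares. FTO, whose introns hold long-range regulatory elements of IRX3, had group means of 39.1 to 59.5 TPM. MMP2 was the 1 chromosome 16 neighbour higher at day 4 than at day 2, in all 6 comparisons, by 1.85 to 2.73 on the log2 scale. Of the chromosome 5 neighbours, none was higher at day 4, and 1 of 4 was lower in aNE_M and in pNE_T and 2 of 4 in pNE_M and in pNE_H, groups that include both midbrain groups, where IRX2 also fell. LPCAT1, an enzyme of phospholipid synthesis, had a mean of 222 TPM in pNE and fell to 80.4, 89.8 and 71.7 TPM in pNE_T, pNE_M and pNE_H, and ADAMTS16, a secreted protease gene, was the other, at no more than 2.04 TPM in these groups.

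**Figure D5:**
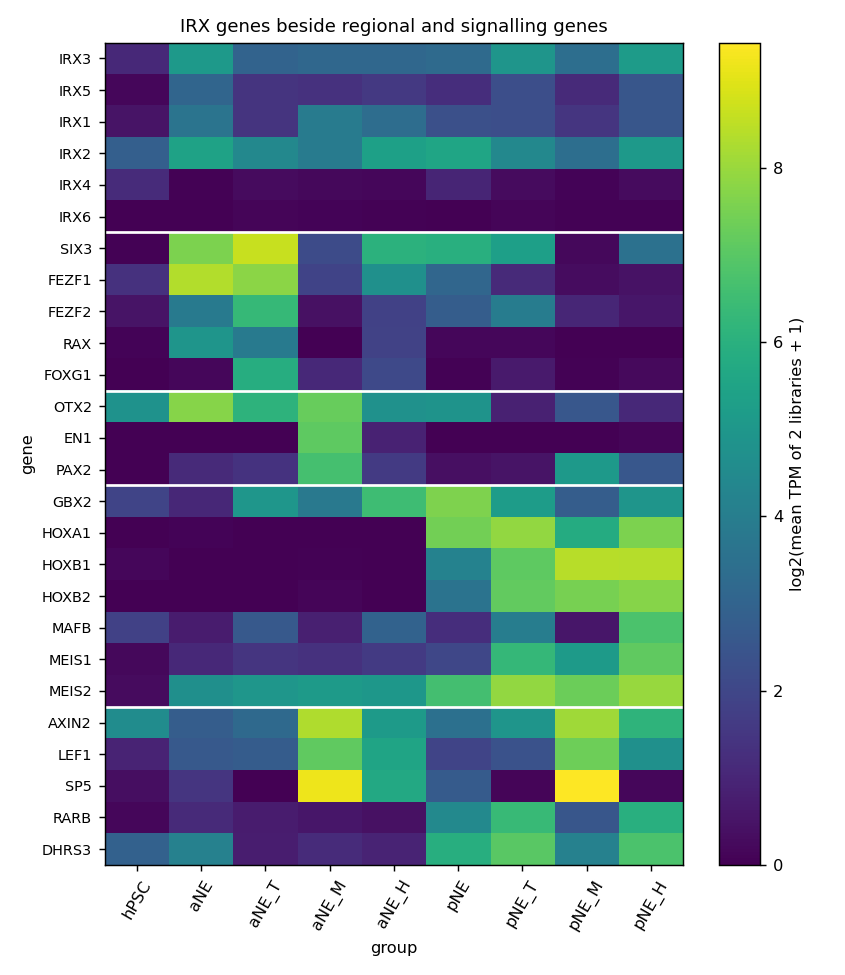
Log2(mean TPM of 2 libraries + 1), shown as colour, for the Iroquois genes and for genes of the lists named in the text (rows) in the 9 groups (columns). White lines part the Iroquois, rostral, midbrain, hindbrain with TALE, and signalling genes. The rows of AXIN2 and SP5 are brightest in aNE_M and pNE_M, and those of RARB and DHRS3 in pNE_T and pNE_H.

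The members were last set against all other genes by their pattern over the 9 group means of log2(TPM + 1), as a description with no p, since the points share their groups. Among 12451 genes with at least 5 TPM in a group, the gene most like IRX3 was IRX5 (Pearson r = 0.951), followed by CBLB (0.932) and ENPP2 (0.918). For IRX5 they were ENPP2 (0.955), IRX3 (0.951) and CBLB (0.934). ENPP2 had means of 24.7 TPM in aNE, 15.5 TPM in pNE_T and 16.9 TPM in pNE_H, and at most 10.5 TPM in the other groups.

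IRX2 was most like PKDCC (0.968), TIMM23B (0.940) and ADGRL2 (0.929), and PKDCC was at 518 TPM in aNE, 628 TPM in pNE and 72.3 TPM in aNE_M. IRX1 was most like MUC20 (0.938), PI4KB (0.930) and ZNF16 (0.915), whose ranges were narrower than its own. The least alike genes were PTPN9 for IRX3 (-0.972), POLR1H for IRX5 (-0.960), PLEKHJ1 for IRX2 (-0.971) and COX8A for IRX1 (-0.904). Within the family, the other pairs of IRX1, IRX2, IRX3 and IRX5 had r of 0.525 to 0.683.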

How the data were processed

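Poly-A RNA of 18 H1 libraries, 9 groups of 2, was sequenced on a NovaSeq instrument, per the labels' protocols. The authors deposited 1 table of TPM (length-scaled transcript abundance) with 37550 rows, and the submitters' processing notes name kallisto, Trim Galore, FastQC, bcl2fastq, deepTools and hg38. Tool versions, the annotation and the use of strand are not given in the sources used here. TPM keeps no read numbers, so depth is unknown and no counting interval is given.

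The log2(TPM + 1) values of 17033 genes, those reaching 1 TPM in 2 or more libraries, went into a fit of group means over all 18 libraries with limma 3.58.1 (R 4.3.3, variance trend, 9 residual degrees of freedom). It gave 18 comparisons of groups and 3 interactions. P-values were two-sided, with Benjamini-Hochberg adjustment over all tested genes, and errors of log2 differences are limma's SE. They measure the spread between biological replicates of 1 line. The script was tested on simulated data. Alternatives were quantile normalization, median-ratio scaling, a replicate block, a pseudocount of 0.1, filters at 0 and 5 TPM, fits restricted to the libraries being compared, and leaving out each library.

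The 6 members and all gene lists were chosen with earlier results of these data known. Named genes were the members, the list genes with the 3 largest called changes in a comparison, cell type markers, and the 3 most and 1 least alike genes by Pearson r over group means. IRX2-DT and CRNDE were not analysed here. Sequences came from RefSeq (GRCh38.p14) and GENCODE release 29.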

Additional observations from a re-analysis of the deposited data

Results flagged for a closer look

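The change from day 2 to day 4 differed between cells of pNE and aNE origin by limma's test of the difference itself (pNE-derived change minus aNE-derived change, 2 libraries per group) for 3 members. For IRX3 the difference was 3.71 in forebrain, 2.09 in midbrain and 3.86 in hindbrain medium on the log2 scale. For IRX5 it was 2.67, 1.63 and 2.81 in the same media. IRX1 differed by 2.16 in forebrain and by -1.14 in midbrain medium, in opposite directions, and the second was lost in 9 alternatives. Plating density changed with origin at day 4 and cannot be told apart from it in any of these values.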

How the results depend on the processing

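Counts of Iroquois calls stayed within 1.5 times their value under every alternative: 8 to 9 of 10 tests for day 2 against day 0, 4 to 9 of 20 for origin, 14 to 17 of 30 for day 4 against day 2, 6 to 11 of 30 between media and 7 to 9 of 15 for interactions. Of 47 calls, 37 held in every alternative in which the gene was tested and 10 were lost in at least 1, each named with its result. Among the 37, IRX4 in aNE against hPSC was tested in 22 alternatives, where the other calls were tested in 25. IRX4 passed the filter through only 2 libraries and dropped out in the rest, so fewer tests were made there. Signs changed only for differences that were not called. IRX2 in pNE_T minus aNE_T (-0.0041) was 0.0568 with median-ratio scaling and 0.0334 with quantile normalization, and -0.0539 to 0.0457 when 1 library was left out. Leaving out 1 library gave -0.00521 to 0.215 for IRX2 in pNE minus aNE, -0.0705 to 0.348 for IRX3 and -0.284 to 0.0834 for IRX5 in pNE_M minus pNE, and -0.219 to 0.0011 for the IRX2 interaction in forebrain medium. IRX5 in pNE_M minus pNE was 0.0581 with quantile normalization. The cause was not tested.

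A fit of the compared libraries alone, with 2 residual degrees of freedom, lowered counts over all genes: from 655 to 355 for pNE against aNE, 1164 to 717 for pNE_H against aNE_H, 838 to 373 for aNE_H against aNE_M and 857 to 473 for pNE_H against pNE_T. Replicate numbers did not pair libraries: over 36 pairs of groups, same-numbered deviations correlated at -0.0896 to 0.0762. A fit with the replicate block kept all 47 calls and changed none of 77 member tests. Scalings shifted the median of all genes by -0.0647 to 0.0816. TPM keeps no depth, so how far depth limits IRX4 and IRX6 is unknown.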
